A study of Mus musculus with 6 samples.

Results

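The growth factor gene Igf2, its chromosomal neighbour H19, and the receptors, binding proteins and adaptor of the insulin-like growth factor axis were examined in cultured mouse germline stem cells. The 10 genes were Igf2, H19, Igf2r, Igf1r, Insr, Igfbp2, Igfbp3, Igfbp4, Igfbp5 and Irs1, each found as 1 row among the 32285 genes of the deposited count table by its Ensembl identifier. Igf2 was chosen by its call in the very comparison described here, on the same counts, and the other genes were listed around it with results of these libraries known. Their differences between the media are therefore a description: no p is given for them, and the counts of calls among them support nothing.

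Germline stem cells are a self-renewing culture of spermatogonial stem cells, the cells from which sperm production starts. The libraries came from 1 wild-type line with a GFP marker on a DBA background (DBA-GFP GS cell), grown in complete medium for the 3 control libraries and, for the 3 pyruvate libraries, in medium that the labels identify by 8 mM pyruvate alone. Genotype and line are thus shared by both groups. The labels give neither the other energy sources of the pyruvate medium, nor the time in it, nor whether feeder cells were present, nor whether the libraries were separate cultures, so the spread between them may be technical.

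IGF2 is a secreted growth factor that, like IGF1 and insulin, signals through the receptor tyrosine kinases encoded by Igf1r and Insr, whose adaptors include IRS1 and which activate the PI3K, AKT and mTOR kinases. The product of Igf2r does not signal in this way: it carries IGF2 to lysosomes for breakdown and also sorts lysosomal enzymes. Secreted binding proteins hold the growth factors outside the cell and can block or prolong their action. Igf2 and H19 are imprinted in somatic tissue, Igf2 being expressed from the paternal and H19, a noncoding RNA, from the maternal chromosome, under a control region between them that carries DNA methylation on paternal chromosomes. DNA methylation and allelic origin were not measured here.

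Each library held 20918312 to 26413080 counts. Levels are given as CPM, the counts of a gene relative to its library total after edgeR's TMM scaling, and 3 counts, taken as the floor of detection, came to 0.116 to 0.143 CPM, a limit that covers counting error only. Of the germline markers 15 of 15 were measured, led by Dazl at a mean of 760.1 CPM, with summed levels of 3980 to 4853 CPM in control and 3617 to 4228 CPM in pyruvate libraries. The groups did not overlap for 4 of the 15, beside 22.5% of all tested genes. Nanos2 was higher and Lhx1, Bcl6b and Epcam were lower in pyruvate libraries. Of the fibroblast and mesenchymal markers, 16 of 18 passed the filter on low counts and 0 were at 0. They summed to 654 to 734 CPM in control and 705 to 748 CPM in pyruvate libraries. Most of this sum was Fn1, at a mean of 301.6 CPM, and Col5a1, at 198 to 209 CPM in control and 232 to 299 CPM in pyruvate libraries. Col1a1 stood at 48.5 to 82.0 CPM and Col1a2 and Col3a1 at 4.41 to 11.8 CPM over both groups. Lum and Dcn reached at most 0.68 CPM. Fshr of the Sertoli list, Hsd3b1, Insl3 and Lhcgr of the Leydig list, Emcn of the endothelial list and Adgre1 of the macrophage list were at 0 in every library, and these lists summed to at most 36.6 CPM in any library. Other members of the same lists were above the floor. They were led by Wt1 (Sertoli), Star (Leydig), Kdr (endothelial) and Cd68 (macrophage) at means of 15.5, 3.02, 12.2 and 5.70 CPM. Control replicate 2 stood apart from the other controls. Log2 fold changes that moved by over 1.5 times, changed sign or changed call without it are given both ways. The fit without it is a check and not a better estimate, since pyruvate replicate 1 also stood apart from its group.

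The sequences of the axis shown here are those of the locus itself and of the genes with the clearest separation between media. Their relation to the expression values was not tested. H19 (ENSMUSG00000000031, chromosome 7, 142575529 to 142578143) and Igf2 (ENSMUSG00000048583, chromosome 7, 142650766 to 142666816) lie on the minus strand of GRCm38 with 72622 bases between them in GENCODE M21. Each hosts a microRNA, miR-675 in an exon of H19 and miR-483 between exons of Igf2. Their mature sequences in RefSeq (GRCm38.p6) are shown with the seed, bases 2 to 8, in capitals; the microRNAs themselves were not measured.
mmu-miR-675-5p: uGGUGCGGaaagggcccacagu
mmu-miR-675-3p: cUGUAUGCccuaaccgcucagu
mmu-miR-483-5p: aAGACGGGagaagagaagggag
mmu-miR-483-3p: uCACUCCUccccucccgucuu
The seeds of these 4 sequences all differ from one another.

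Promoters are shown for Igf2, Igfbp4 and Igfbp5, the axis genes whose libraries did not overlap between the media. RefSeq lists 4 promoters for Igf2, of which the one nearest its coding exons is shown (chr7:142657447-142657746, minus strand). The others are those of Igfbp4 (chr11:99040994-99041293, plus strand) and Igfbp5 (chr1:72874816-72875115, minus strand), all 300 bases long, 5′ to 3′ and of build GRCm38.p6. Capitals mark matches, on either strand, to the GC box GGGCGG, the TATA box TATAAA, the E-box CACGTG or the FOXO motif GTAAACA.
Igf2 promoter: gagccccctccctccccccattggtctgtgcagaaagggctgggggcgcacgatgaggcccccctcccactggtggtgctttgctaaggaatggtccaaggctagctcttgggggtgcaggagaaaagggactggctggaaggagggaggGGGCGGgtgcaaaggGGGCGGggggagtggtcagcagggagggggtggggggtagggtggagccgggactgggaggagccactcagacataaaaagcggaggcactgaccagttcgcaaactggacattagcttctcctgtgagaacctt
Igfbp4 promoter: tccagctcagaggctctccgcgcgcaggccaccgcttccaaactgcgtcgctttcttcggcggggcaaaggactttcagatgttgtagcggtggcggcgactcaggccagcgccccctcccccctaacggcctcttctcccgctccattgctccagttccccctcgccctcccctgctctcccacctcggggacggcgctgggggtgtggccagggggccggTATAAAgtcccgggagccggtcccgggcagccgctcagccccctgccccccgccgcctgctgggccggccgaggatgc
Igfbp5 promoter: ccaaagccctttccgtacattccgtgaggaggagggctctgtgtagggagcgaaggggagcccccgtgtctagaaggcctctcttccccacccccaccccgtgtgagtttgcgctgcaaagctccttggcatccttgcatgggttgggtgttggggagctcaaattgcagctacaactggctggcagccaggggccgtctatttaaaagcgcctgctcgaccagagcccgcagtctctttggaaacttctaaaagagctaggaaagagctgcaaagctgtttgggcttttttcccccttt
The Igf2 promoter held 2 GC boxes and Igfbp4 1 TATA box, while Igfbp5 held 0 matches to any of these motifs. Among all 32851 promoters of this length, 35.7% held a GC box, 13.6% a TATA box, 7.15% an E-box and 3.65% the FOXO motif. The count table does not tell which Igf2 promoter was used.

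Of the ligand genes Igf2, Igf1, Ins1 and Ins2, Igf2 alone had counts above the floor in these libraries. Igf1 and Ins1 had 0 counts in each of the 6 libraries and Ins2 had 1 count in 1 pyruvate library, all below the floor of 0.116 to 0.143 CPM. Igf2 stood at 182, 184 and 172 CPM in control replicates 1, 2 and 3 and at 109.6, 113 and 114 CPM in pyruvate replicates 1, 2 and 3. All 3 pyruvate libraries lay below all 3 controls, and the gap between the groups was wider than the spread within either. The means were 179 ± 6.07 and 112 ± 2.49 CPM (SD, n = 3 per group), and in edgeR's fit Igf2 fell by 37.3%, a log2 fold change of -0.67 (SE 0.069). Over 15 alternative settings this log2 value ran from -0.74 to -0.64. In bulk RNA, fewer cells with a transcript and less transcript per cell cannot be told apart. Of 16 tested markers of fibroblasts, a cell type that can express Igf2, 0 were called, beside 0.0536% of all tested genes. Of the 16, 8 lay above 0 and 8 below, and the median log2 was -0.013. Of these, Col1a1 and Col5a1 were higher in every pyruvate library than in every control, and Fn1, Pdgfra and Sparc lower. Among all tested genes, 22.5% had groups that did not overlap. The part of the fibroblast markers in the Igf2 values was not tested.

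Of the Igf2 exons, 98 bases, or 1.71% of their length, overlap the opposite-strand transcript Igf2os, which stood at 7.99 ± 0.88 and 6.93 ± 0.99 CPM (log2 -0.21, and -0.12 and -0.10 without control replicate 3 and pyruvate replicate 1). A model on the same strand, Gm49394, covers 62.8% of the Igf2 exons and was not counted as a gene of its own in the table used here.

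H19 followed the media less closely. It stood at 131, 104 and 123 CPM in control and at 117, 93.7 and 93.1 CPM in pyruvate replicates 1, 2 and 3. Pyruvate replicate 1 lay above control replicate 2, so that the groups overlapped. The means were 119.5 ± 14.0 and 101 ± 13.5 CPM (log2 -0.24, SE 0.12, and -0.33 without control replicate 2). The ratio of Igf2 to H19, both per kilobase of exon and within a library, needs no scaling between libraries. It was 0.60, 0.76 and 0.60 in control and 0.40, 0.52 and 0.53 in pyruvate replicates 1, 2 and 3. All control ratios lay above all pyruvate ratios, with means of 0.65 ± 0.093 and 0.48 ± 0.070. In both media, then, H19 was the more abundant per kilobase, at 48.6 ± 5.71 CPM per kilobase against 31.3 ± 1.06 for Igf2 in control.

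**Figure D1:**
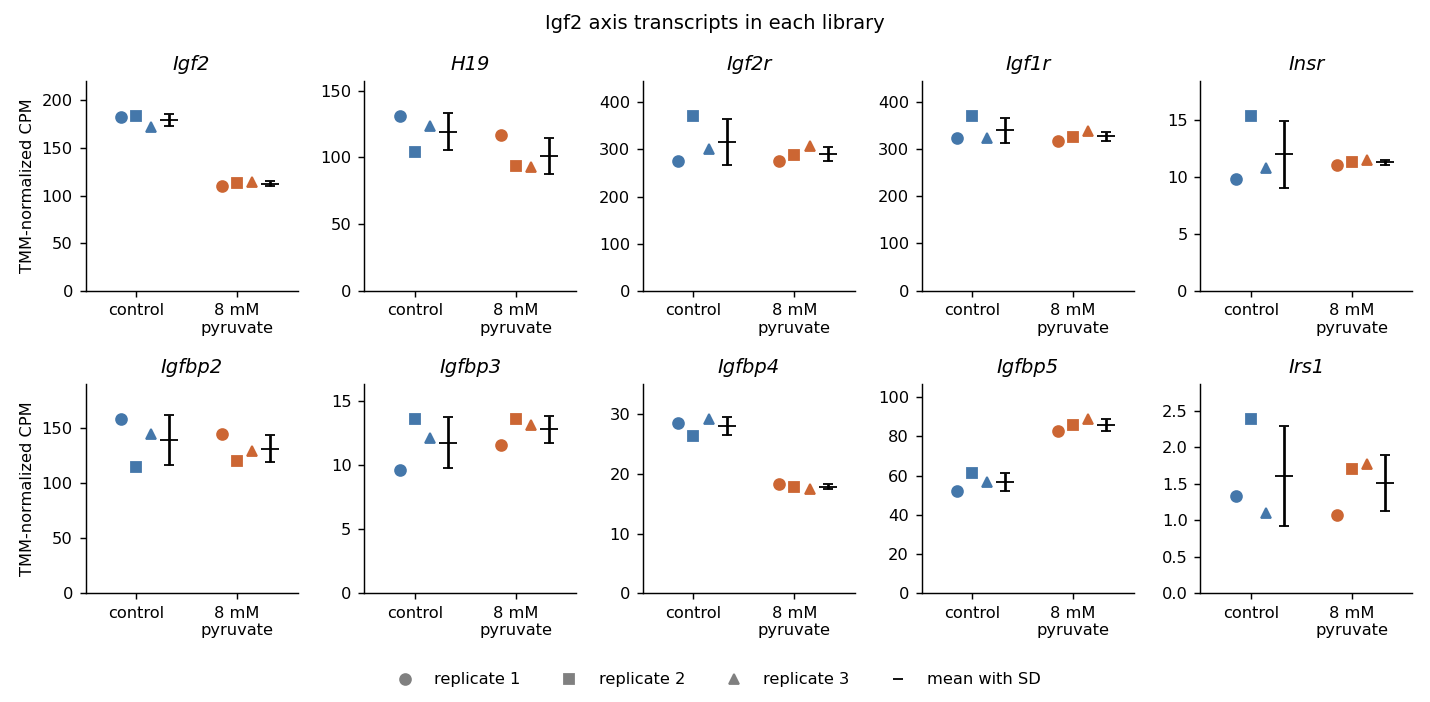
TMM-normalized CPM (vertical axes, from 0) of the 10 axis genes in each control (blue) and 8 mM pyruvate (orange) library; symbols mark replicates 1 to 3 and bars the mean with SD. Igf2 and Igfbp4 are lower and Igfbp5 is higher in all 3 pyruvate libraries than in all 3 controls, while the other 7 genes overlap.

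The receptor genes overlapped between the media. Igf1r (chromosome 7, 67952827 to 68233668), the signalling receptor for both IGF ligands, stood at 324, 369.9 and 324 CPM in control and at 318, 325 and 338 CPM in pyruvate replicates 1, 2 and 3. Igf2r (chromosome 17, 12682406 to 12769664), the clearance receptor, stood at 276, 371 and 301 CPM in control and at 276, 287 and 307 CPM in pyruvate libraries. Insr (chromosome 8, 3122061 to 3279617), the insulin receptor, stood at 9.79, 15.4 and 10.8 CPM in control and at 11.1, 11.3 and 11.5 CPM in pyruvate libraries. For all 3 genes control replicate 2 was the highest library and the other controls lay among the pyruvate libraries or below them. Their log2 fold changes were -0.054 (SE 0.079), -0.12 (SE 0.11) and -0.088 (SE 0.17), and without control replicate 2 they were 0.013, 0.0076 and 0.13, the sign changing in each. Per kilobase, Igf1r exceeded Insr 23.8 ± 3.73 times in control and 23.7 ± 0.32 times in pyruvate libraries. The ratio of Igf2r to Igf2 per kilobase was 0.93, 1.24 and 1.07 in control and 1.55, 1.56 and 1.65 in pyruvate libraries, without overlap.

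The adaptor gene Irs1 (chromosome 1, 82233101 to 82291416) was scarce, with 23 to 61 counts a library, and stood at 1.61 ± 0.69 and 1.52 ± 0.38 CPM. Its libraries overlapped, its log2 fold change of -0.11 (0.31 without control replicate 2) had an SE of 0.34, and 30.9% of its exons overlap an opposite-strand gene. Irs2, its relative, was the more abundant of the pair, 50.6 ± 11.7 times per kilobase in control and 48.4 ± 8.30 times in pyruvate medium.

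The binding protein genes held both a lower and a higher member. Igfbp4 (chromosome 11, 99041244 to 99054392), whose product mostly inhibits IGF action, stood at 28.5, 26.4 and 29.3 CPM in control and at 18.3, 17.8 and 17.5 CPM in pyruvate replicates 1, 2 and 3. Every pyruvate library was below every control (log2 -0.65, SE 0.089, and -0.69 without control replicate 2), a difference of -36.2%. Igfbp5 (chromosome 1, 72857932 to 72874884), whose product binds matrix as well as IGFs, stood at 52.4, 61.5 and 56.5 CPM in control and at 82.7, 85.6 and 89.1 CPM in pyruvate libraries. It was 1.51-fold higher without overlap (log2 0.59, SE 0.087, and 0.66 without control replicate 2). The ratio of Igfbp5 to Igfbp4 per kilobase moved from 1.35, 1.72 and 1.42 in control to 3.32, 3.53 and 3.74 in pyruvate libraries. The lowest pyruvate ratio was well above the highest control ratio.

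Igfbp2 and Igfbp3 overlapped between the media. Igfbp2 (chromosome 1, 72824503 to 72852474), the most abundant of them per kilobase, stood at 158, 114 and 144 CPM in control and at 144, 120.1 and 129 CPM in pyruvate libraries (log2 -0.085, SE 0.13, and -0.21 without control replicate 2). Igfbp3 (chromosome 11, 7206086 to 7213923), best known as the main carrier of IGFs in serum, stood at 9.61, 13.6 and 12.1 CPM in control and at 11.6, 13.6 and 13.1 CPM in pyruvate libraries (log2 0.12, SE 0.14, and 0.24 without control replicate 2). Summed per kilobase with Igfbp6, described next, the binding proteins reached 98.1 ± 11.7 CPM per kilobase in control and 101 ± 7.59 in pyruvate medium, a difference smaller than the spread. Within that sum the share of Igfbp4 was 6.51 ± 0.51% and 4.0 ± 0.23%, and the share of Igfbp5 was 9.80 ± 2.03% and 14.2 ± 1.41%. The share of Igfbp2 was 76.5 ± 3.47% and 69.9 ± 1.47%. None of these 3 shares overlapped between the groups.

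**Figure D2:**
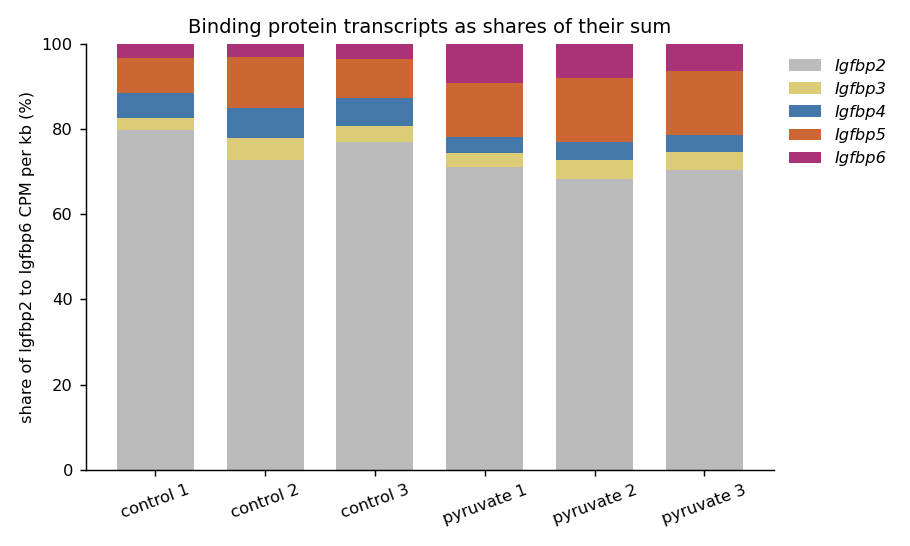
Stacked bars give, for each library, the share (%) of Igfbp2, Igfbp3, Igfbp4, Igfbp5 and Igfbp6 in their summed CPM per kilobase of exon. Igfbp4 takes 5.99 to 7.02% in control and 3.78 to 4.23% in pyruvate libraries, Igfbp5 8.10 to 12.05% and 12.5 to 14.98%, and Igfbp6 3.03 to 3.47% and 6.36 to 9.26%.

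Of the other binding proteins, Igfbp6, whose product prefers IGF2 over IGF1, stood at 4.0, 2.87 and 3.92 CPM in control and at 11.3, 8.46 and 7.0 CPM in pyruvate replicates 1, 2 and 3. The groups did not overlap (log2 1.32, SE 0.21), but the quasi-likelihood test of edgeR, with Benjamini-Hochberg adjustment over all genes, gave adjusted p = 0.0817. Leaving out control replicate 2 brought this edgeR value to adjusted p = 0.0189, at log2 1.18. With any other single library left out, it ran from 0.180 to 0.353. Igfbpl1, a related secreted protein, stood at 19.8 ± 2.00 and 17.8 ± 0.30 CPM (log2 -0.16, and -0.24 without control replicate 2) and Igfbp7 at 1.02 ± 0.060 and 1.05 ± 0.27 CPM (log2 0.025, and 0.052 without that library). Igfbp1 and Igfals, which encodes the subunit that stabilizes IGF complexes in serum, had too few counts for the test. Among the proteases that cut binding proteins, Adam12 stood at 3.74 ± 1.21 and 6.86 ± 1.00 CPM (log2 0.87 and adjusted p = 0.169 by edgeR) and the gelatinase gene Mmp9 at 24.9 ± 2.98 and 19.1 ± 1.62 CPM (log2 -0.39, adjusted p = 0.208). Leaving out control replicate 2 gave 1.16 and -0.46, with adjusted p = 0.0132 and 0.0403 by edgeR. With any other single library left out, the edgeR adjusted p ran from 0.309 to 0.433 for Adam12 and from 0.324 to 0.499 for Mmp9. Stc2, an inhibitor of the protease PAPP-A, stood at 1.82 ± 0.13 and 2.28 ± 0.69 CPM (log2 0.32, and 0.052 without pyruvate replicate 1), and Insrr, the orphan relative of the insulin receptor, at 0.60 ± 0.049 and 1.27 ± 0.24 CPM (log2 of 1.07 with adjusted p = 0.154).

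Of the 10 axis genes, 1, Igf2, was among the 8 genes called over the whole table by edgeR at an adjusted p under 0.05, where 0.0536% of 14912 tested genes were called, 0.0335% lower and 0.0201% higher. Without control replicate 2 the call covered 3 of 10 axis genes, Igf2, Igfbp4 and Igfbp5, and 4.16% of all genes (1.82% lower and 2.33% higher). DESeq2 also called these 3, with 2.13% of all genes. The edgeR call covered 0 of 10 when any other library was left out. Groups did not overlap for 3 of 10 axis genes, 2 lower and 1 higher, beside 22.5% of all tested genes (10.6% lower and 11.9% higher). All 10 passed the filter on low counts. Their median log2 fold change was -0.098, with 2 genes above 0 and 8 below, beside -0.010 for all tested genes; without control replicate 2 the median was 0.010. Since this comparison chose Igf2, these counts describe the list and show nothing further about it.

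Per kilobase of exon, the control levels ran in the order Igfbp2, H19, Igf2r, Igf2, Igf1r, Igfbp5, Igfbp4, Igfbp3, Insr and Irs1, from 75.3 ± 12.2 to 0.18 ± 0.076 CPM per kilobase. Igf2r and Igf2, at 33.9 ± 5.29 and 31.3 ± 1.06, overlapped in their libraries, and no other neighbours in this order did. In pyruvate medium Igf2, at 19.6 ± 0.44, lay clear of Igf2r at 31.2 ± 1.67 and overlapped Igf1r at 19.5 ± 0.60. Igfbp4 and Igfbp3 also overlapped there, at 4.05 ± 0.095 and 4.08 ± 0.34.

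Control replicate 2 differed from the other controls along gene length. Among all tested genes, its median log2 deviation was 0.18 for the longest 25% (exon length from 6583 bases) and -0.15 for the shortest 25% (up to 2560 bases), against -0.093 to 0.028 and -0.018 to 0.076 in the other 5 libraries. For the longest 25%, control replicates 1 and 3 stood at -0.093 and -0.063, and pyruvate replicates 1, 2 and 3 at -0.076, 0.028 and 0.020. The fit without control replicate 2 did not adjust for this trend. In the axis, the long transcripts of Igf2r, Igf1r, Insr and Irs1 were higher in control replicate 2 than in the mean of the other controls. The differences were 0.36, 0.19, 0.57 and 0.94 on the log2 scale. The short transcripts of Igfbp2 and H19 were lower, with differences of -0.40 and -0.29, but that of Igfbp3, the next shortest at 3130 bases, was higher by 0.33, more than the longest, Igf1r. Igf2 and Igfbp4 differed by 0.052 and -0.13 and Igfbp5 by 0.18, while the same genes differed by -0.66, -0.69 and 0.66 between the pyruvate mean and those controls.

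**Figure D3:**
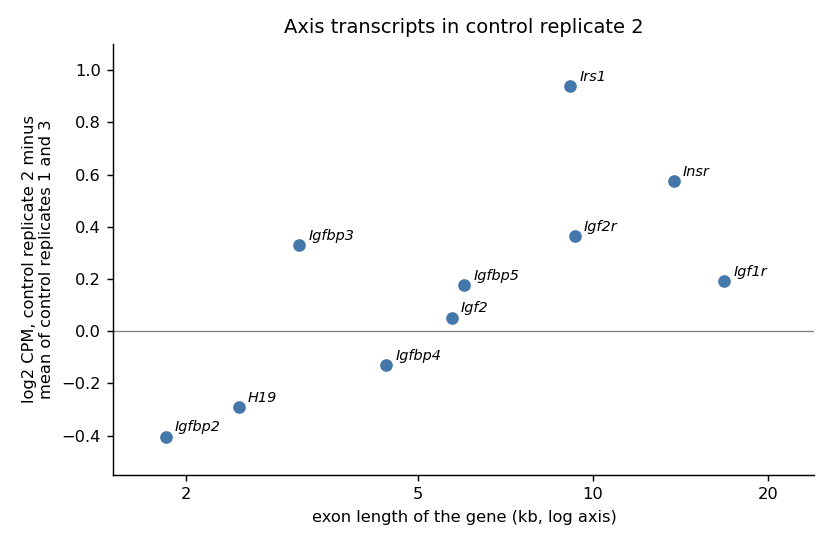
Each point is an axis gene, placed by its exon length (kb, log axis) and by log2 CPM in control replicate 2 minus the mean of control replicates 1 and 3. Points run from -0.40 for Igfbp2 to 0.94 for Irs1, and Igf2 lies at 0.052.

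None of the pathway genes listed around the axis passed edgeR's test over all genes. The lists held 107 genes, of which 95 were tested and 0 called, beside 0.0536% of all tested genes. Of the 95, 21 had an unadjusted p under 0.05 in edgeR (14 higher and 7 lower), or 22.1% against 14.4% of all tested genes. The lists were chosen with earlier results of these data known. The shares and p-values of their genes are therefore a description and no independent evidence. The median log2 fold change of the 95 was 0.0100. DESeq2 called 7 of 95, beside 2.13% of all tested genes, and limma-voom 0. Without control replicate 2, edgeR called 11, of which 9 were higher and 2 lower, beside 4.16% of all genes (2.33% higher and 1.82% lower). Removing any other library left 0 called. The 11 were Fbxo32, Cdkn1b, Bcl6, Ccng2, Foxo3, Igfbp6, Adam12, Irs4 and Pik3r3 upward and Igf2bp2 and Mmp9 downward.

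**Figure D4:**
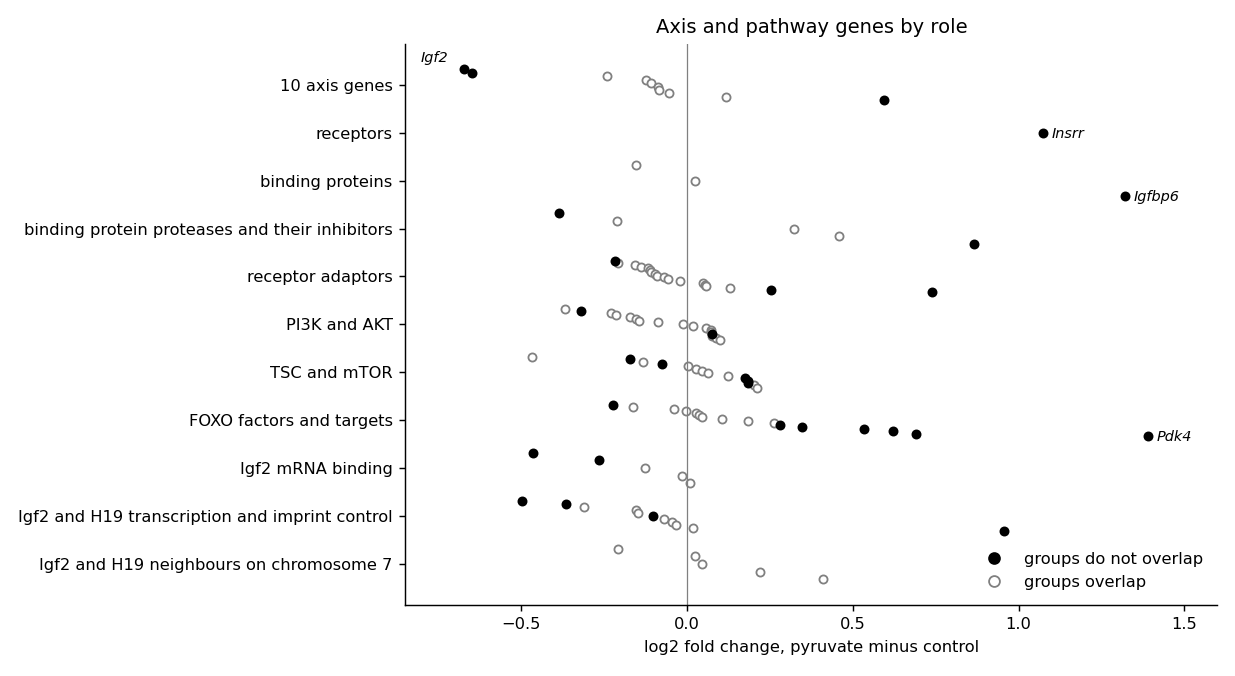
Log2 fold change, pyruvate minus control (horizontal axis), of the axis genes and of each tested pathway gene, with genes of 1 role in a row; filled points are genes whose libraries do not overlap between the groups. Igf2 lies at -0.67, and Igfbp6 at 1.32, Insrr at 1.07 and Pdk4 at 1.39 lie farthest to the right. Pdk4 had only 2 to 23 counts a library.

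Of the pathway lists, that of FOXO factors and their targets held the most genes without overlap by count, 7 of 16. Several smaller lists came near this share. It was 5 of 14 for TSC and mTOR, 4 of 11 for control of the locus, and 2 of 5 each for Igf2 mRNA binding and for proteases. It was 3 of 18 for receptor adaptors, 2 of 17 for PI3K and AKT and 0 of 5 for chromosome 7 neighbours. FOXO proteins are transcription factors that AKT keeps out of the nucleus when insulin or IGF signals arrive. Of 16 members 0 were called by edgeR, beside 0.0536% of all tested genes. Of the 16, 12 lay above 0, and the median log2 was 0.14 beside -0.010 for all tested genes. The groups did not overlap for 6 genes that were higher and 1 that was lower, against 22.5% of all tested genes. Fbxo32, a ubiquitin ligase subunit, stood at 36.2, 35.2 and 34.2 CPM in control and at 68.2, 54.1 and 48.1 CPM in pyruvate replicates 1, 2 and 3 (log2 0.69, SE 0.13, edgeR adjusted p = 0.108). Bcl6, a transcriptional repressor, stood at 6.48 ± 0.83 and 9.99 ± 1.47 CPM (log2 of 0.62 with adjusted p = 0.156). Cdkn1b, which encodes the cell cycle inhibitor p27, stood at 5.09 ± 0.59 and 7.39 ± 0.65 CPM (log2 of 0.53 with adjusted p = 0.167). Foxo3 itself stood at 169 ± 19.3 and 214 ± 18.7 CPM (log2 of 0.35 with adjusted p = 0.202), whereas Foxo1, needed for spermatogonial stem cell maintenance in mice, stood at 191 ± 29.8 and 186 ± 2.83 CPM. With all libraries, DESeq2 called 2 of 16, Fbxo32 and Bcl6, beside 2.13% of all tested genes, and limma-voom called 0. With GC and length trends removed, edgeR called 2 of 16, Fbxo32 and Cdkn1b, beside 389 genes in all. Without control replicate 2, edgeR called 5 of 16 higher and 0 lower, beside 2.33% higher and 1.82% lower of all genes in that fit. The log2 values there were 0.69 for Fbxo32, 0.70 for Bcl6, 0.64 for Cdkn1b and 0.44 for Foxo3. The edgeR adjusted p there was 0.0261 for Fbxo32, 0.0449 for Bcl6, 0.0425 for Cdkn1b, 0.0158 for Foxo3 and 0.0318 for Ccng2. Ccng2, a cyclin G gene, stood at log2 0.26 with all libraries and at 0.46 in that fit. Foxo3 and Ccng2 were called in no other setting. Sesn1 and Pdk4 were the other genes higher without overlap and Bcl2l11 the lower one. Their log2 values were 0.28, 1.39 and -0.22, and these 3 were chosen after their values were seen. Pdk4 was scarce, with 7, 9 and 2 counts in control and 15, 23 and 13 in pyruvate replicates 1, 2 and 3. Its log2 value had an SE of 0.44, and the count of 2 lay under the floor of 3.

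Among the kinase pathways, 0 genes of either list passed the test, which 0.0536% of all tested genes passed. Of 17 PI3K and AKT genes 0 were called, with a median log2 of -0.011. The lowest p in this list was that of Inpp5d, a phosphatase that removes the PI3K product (8.61 ± 1.16 and 6.67 ± 0.84 CPM, log2 -0.37, edgeR adjusted p = 0.321), followed by Phlpp1, an AKT phosphatase (log2 -0.32), and Gsk3a (log2 -0.15). Without control replicate 2, Phlpp1 stood at -0.16 and Gsk3a at -0.23, and Gsk3a ran down to -0.087 without control replicate 1 and -0.096 without pyruvate replicate 2. Pik3r3, a regulatory subunit of PI3K, stood at log2 0.077 with all libraries and at 0.26 (adjusted p = 0.0484 in edgeR) without control replicate 2. Of 14 TSC and mTOR genes 0 were called. Tsc2, an inhibitor of mTOR, and Rptor and Mlst8, subunits of its complex, stood at log2 0.18 each, with adjusted p = 0.325, 0.317 and 0.330 in edgeR. With GC and length trends removed they stood at 0.100, 0.085 and 0.12. Of 18 receptor adaptors 0 were called and the median was -0.080; Irs4 stood at 1.15 ± 0.50 and 1.96 ± 0.12 CPM (log2 of 0.74 with adjusted p = 0.304), Gab2 at log2 0.25 and Dok4 at log2 -0.22 (-0.10 without pyruvate replicate 2). Without control replicate 2, Irs4 stood at log2 1.17 with adjusted p = 0.0375 in edgeR. Exons of Gsk3a, Mlst8 and Dok4 overlap opposite-strand genes over 28.3, 22.5 and 31.2% of their length, and 24.3% of the Pik3r3 exons overlap a same-strand model, so their counts are uncertain.

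Transcripts of genes whose proteins bind Igf2 mRNA were measured next to Igf2 itself. Igf2bp2 stood at 62.5, 62.8 and 62.1 CPM in control and at 46.7, 45.9 and 43.1 CPM in pyruvate replicates 1, 2 and 3. The controls lay within 1 CPM of each other and all above the pyruvate libraries (log2 -0.47, SE 0.077), with an edgeR adjusted p of 0.0850. Leaving out control replicate 2 gave log2 -0.46, with adjusted p = 0.0118 in edgeR. Igf2bp1, the most abundant of the family here, stood at 592, 704 and 597 CPM in control and at 456, 554 and 566 CPM in pyruvate libraries, again without overlap (log2 of -0.26 with adjusted p = 0.323). Its log2 value was -0.18 without control replicate 2 and -0.17 without pyruvate replicate 1. Igf2bp3 overlapped, at 50.5 ± 7.45 and 46.3 ± 3.58 CPM (log2 -0.13, and 0.0031 without control replicate 2). Of the 5 genes in this list 0 were called with all libraries, beside 0.0536% of all tested genes, and 4 lay below 0. Groups did not overlap for 2 of the 5, beside 22.5% of all tested genes.

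Factors that control the locus gave 0 calls of 11, beside 0.0536% of all tested genes, with a median log2 of -0.10. Groups did not overlap for 4 of the 11, 1 higher and 3 lower, beside 22.5% of all tested genes. Ctcfl, a germ cell relative of the insulator protein CTCF, stood at 19.5 ± 1.91 and 13.8 ± 1.14 CPM (log2 -0.50, edgeR adjusted p = 0.136). Dppa3, which guards methylation of imprinted regions in the zygote, stood at 2.54 ± 0.26 and 4.93 ± 1.37 CPM (log2 of 0.96 with adjusted p = 0.149), and E2f3, an activator of Igf2 transcription, at log2 -0.31. The E2f3 value was -0.14 without control replicate 2 and -0.19 without pyruvate replicate 1. DESeq2 called Ctcfl and Dppa3 (adjusted p = 0.0238 and 0.0192). Of the 9 neighbours on chromosome 7, 5 were tested and 0 called, beside 0.0536% of all tested genes. Their groups overlapped in all 5, while groups did not overlap for 22.5% of all tested genes. Lsp1 stood at 5.10 ± 0.44 and 6.76 ± 2.02 CPM and Mrpl23, the mitochondrial ribosomal gene beyond H19, at 9.51 ± 1.29 and 11.04 ± 1.86 CPM. Their log2 values were 0.41 and 0.22, and 0.15 and 0.076 without pyruvate replicate 1. Mrpl23 stood at 0.12 without control replicate 2.

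The genes whose log2 CPM ran most like that of Igf2 over the 6 libraries were Exo1 (Pearson r = 0.999), Dlst (0.997), Idh2 (0.997), Slc38a4 (0.996) and Arrdc4 (0.992), out of 10546 genes with a mean of at least 5 CPM. Of these genes 347 had r above 0.9, and the 6 libraries share only 2 media. Slc38a4, an amino acid transporter that is also imprinted, stood at 105 ± 2.7 and 57.4 ± 0.60 CPM, and Idh2, a mitochondrial isocitrate dehydrogenase, at 6.73 ± 0.33 and 4.06 ± 0.037 CPM. For H19 they included Zfp689, Uck2, AU022751 and Ccdc152 (r from 0.989 to 0.995), and none of these was among the 5 for Igf2. Within the axis, Igf2 had r = 0.971 with Igfbp4 and -0.958 with Igfbp5, and Igf1r had r = 0.970 with Igf2r. Igf2, Igfbp4 and Igfbp5 each differed between the media without overlap, so the size of their r largely restates that difference. Control replicate 2 was the highest library for both Igf1r and Igf2r, and r was not recomputed without it.

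**Figure D5:**
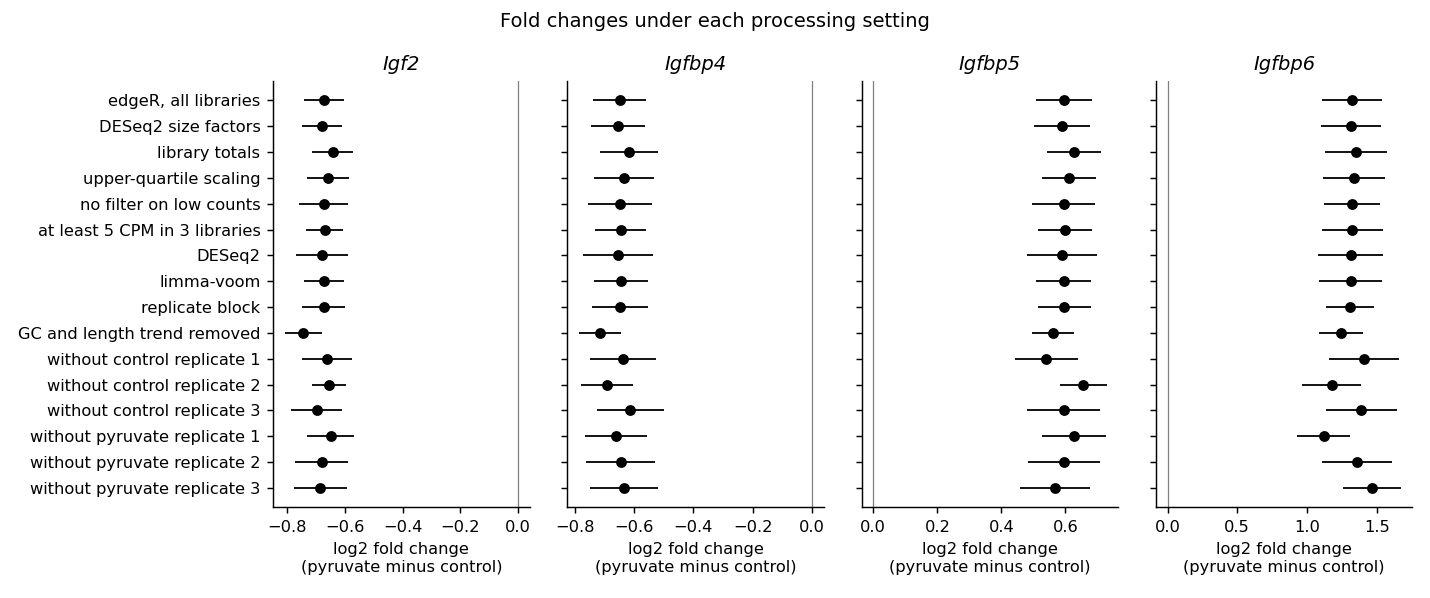
Log2 fold change, pyruvate minus control, of Igf2, Igfbp4, Igfbp5 and Igfbp6 under each processing setting (rows), with bars of 1 SE. Igf2 stays between -0.74 and -0.64, and every value of these 4 genes keeps its sign.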

How the data were processed

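Expression was measured by mRNA sequencing in 3 control and 3 pyruvate libraries. The authors deposited whole-number read counts for 32285 Ensembl genes, not normalized. Build mm10, HTSeq 2.0.5, STAR 2.7.11a, cutadapt 4.6 and bcl2fastq 2.20 were used per the submitters' processing notes. Strand setting, filters and annotation release: not given in the sources used here. A further 3 columns could be tied to no sample and were not used. Symbols came from GENCODE M21 (GRCm38) for 32158 genes.

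The edgeR package (4.0.16, in R 4.3.3) kept 14912 genes with filterByExpr (minimum count 10), applied TMM scaling and fitted medium alone, with robust quasi-likelihood dispersions. P-values were adjusted by Benjamini-Hochberg over all tested genes, with a threshold of 0.05. An SE is the size of the log2 fold change over the square root of its F statistic. Correlations used log2 CPM with prior count 2. CPM per kilobase divides by the union of annotated exons. The steps were tested on simulated counts. Replicates within a group differed by more than sampling noise (chi-square per gene 3.11 to 47.0), so each was kept. Pairs with control replicate 2 gave 47.0 and 37.4, against 3.11 between the other controls. Pairs with pyruvate replicate 1 gave 15.9 and 12.8, against 4.32 between the other pyruvate libraries.

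Alternatives were other scalings and filters, DESeq2 1.42.0, limma 3.58.1 with voom, a replicate block, and omission of single libraries. A removal of GC and length trends by splines with 5 degrees of freedom was chosen after seeing the data. The 10 axis genes and the 11 pathway lists of 107 genes were chosen with earlier results of these data known. The text names all axis genes, the 3 genes of lowest p in each list, and the 5 genes most like Igf2 and H19, of which 1 is not reported here. Other genes named are family members or were called in an alternative, chosen after their values were seen.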

Additional observations from a re-analysis of the deposited data

How the results depend on the processing

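Igf2 kept its sign in 15 of 15 alternatives and was called in 10, but not when control replicate 1 or 3 or any pyruvate library was left out. Igfbp4, Igfbp5 and Igfbp6 kept their signs and were called in the same 5 settings each: no filter on low counts, DESeq2, the replicate block, GC and length trends removed, and without control replicate 2. Genes called over the whole table were 8; they were 14 with library totals, 15 with upper-quartile scaling, 83 with no filter, 317 with DESeq2, 389 with trends removed, and 0 to 625 when 1 library was left out. Library totals split the calls as 8 higher and 6 lower and the upper quartile as 8 and 7. Pathway genes called were 0; they were 2 with no filter, 7 with DESeq2, 5 with trends removed and 0 to 11 with 1 library left out. Axis genes called were 1; they were 3 with no filter, DESeq2 or trends removed, and 0 to 3 with 1 library left out. The cause of these shifts was not tested.

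With the replicate number as a block, 265 genes were called in all, 5 in the pathway lists and 3 in the axis. The labels do not say that a number marks shared material, and deviations of same-numbered libraries correlated at 0.31, 0.31 and -0.073, so the numbers are taken as names; pyruvate replicate 3 correlated best with control replicate 2.

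Small log2 values changed sign in 12 cases. Over the fits that leave out 1 library, the value ran from -0.21 to 0.0076 for Igf2r, -0.085 to 0.013 for Igf1r, -0.21 to 0.13 for Insr, -0.31 to 0.31 for Irs1 and -0.19 to 0.0031 for Igf2bp3, the highest each time without control replicate 2. It ran from -0.21 to 0.019 for Igfbp2 and from -0.0051 to 0.24 for Igfbp3, which changed sign without control replicate 1. Irs1 also stood at 0.097 without pyruvate replicate 1. Igfbp7 ran from -0.18 to 0.21 with 1 library left out, including -0.017 without control replicate 3, and stood at -0.0095 with limma-voom and -0.059 with trends removed. Irs1 had 23 to 61 counts a library, and depth limits what can be said of the ligands under the floor.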
